A study of Mus musculus with 4 samples.

Results

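Microexons are the shortest exons of a spliced transcript. In the transcript models of mouse retina described here they were taken as internal exons, neither the first nor the last of a transcript, with a length of 3 to 27 nt, and identical exons of several isoforms were joined by their coordinates and strand. This gave 691 microexons among 96655 internal exons, in 596 genes. The level of each was its inclusion: the counts of isoforms that contain the exon as a percentage of the counts of all isoforms of the gene whose span covers it, in a column with at least 50 such covering counts.

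The tissue was retina of wild-type male mice of the inbred strain C57BL6/J. Cells freed by the enzyme papain went into 4 single-cell libraries, and their cDNA was read as long nanopore reads. No enrichment was applied to 2 libraries, of which 1 came from postnatal day 40 and the other carries no age in its labels. Of the remaining libraries, 1 had CD73 enrichment at postnatal week 8 and 1 had CD90.2 enrichment at postnatal month 4. Per the labels' protocols, magnetic beads removed photoreceptors that carry CD73 and collected cells that carry CD90.2, while the design text names FACS. The count table has 6 columns: rods (Rod), cones (Cone), bipolar cells (BC), amacrine cells (AC), retinal ganglion cells (RGC) and Müller glia (MG). The columns carry no library name, so each class is 1 pooled sample without replicates, and the age, enrichment and class of the cells cannot be told apart. No test between classes was possible. A difference is called here when inclusion differs by at least 25 percentage points between columns, which is a rule of size, and intervals are exact Clopper-Pearson 95% intervals that cover counting error only.

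As background, neurons include many microexons that other cells skip. The splicing proteins Srrm3 and Srrm4 promote this inclusion from signals just upstream of the exon, and Ptbp1 represses it outside the nervous system. Many microexons keep the reading frame and add a few residues to the surface of a protein, often in genes of vesicle transport, the cytoskeleton and synapses, and photoreceptors are known to have short exons of their own. Müller glia are the radial glia that span the retina and serve as its main non-neuronal cell type.

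The microexons on which the results turn are printed here from GENCODE M21 transcripts (build GRCm38), 5′ to 3′ on the transcript's strand. Capitals mark the microexon, and the lower-case letters are the neighbouring exon bases of the spliced transcript, not introns. The first set shows coding microexons that were skipped in Müller glia and included in the other classes.
Ergic3, 15 nt, chr2:156015377-156015391, plus strand: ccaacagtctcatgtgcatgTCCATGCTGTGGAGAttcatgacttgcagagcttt
Chchd3, 15 nt, chr6:32893392-32893406, minus strand: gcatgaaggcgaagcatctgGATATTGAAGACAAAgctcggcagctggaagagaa
Fbxo25, 27 nt, chr8:13938922-13938948, plus strand: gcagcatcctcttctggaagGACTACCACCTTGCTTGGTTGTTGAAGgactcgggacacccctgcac
Psap, 9 nt, chr10:60297537-60297545, plus strand: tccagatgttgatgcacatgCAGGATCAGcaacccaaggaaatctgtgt
Ssr1, 15 nt, chr13:37983095-37983109, minus strand: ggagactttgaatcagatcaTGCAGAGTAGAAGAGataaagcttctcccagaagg
Cd47, 25 nt, chr16:49908054-49908078, plus strand: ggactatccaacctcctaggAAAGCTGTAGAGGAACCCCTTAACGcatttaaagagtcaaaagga
Bak1, 20 nt, chr17:27021663-27021682, minus strand: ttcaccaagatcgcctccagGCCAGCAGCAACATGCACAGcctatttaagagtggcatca
Sh3glb1, 24 nt, chr3:144699854-144699877, minus strand: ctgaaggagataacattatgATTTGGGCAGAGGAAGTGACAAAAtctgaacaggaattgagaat
Sh3glb2, 12 nt, chr2:30349226-30349237, minus strand: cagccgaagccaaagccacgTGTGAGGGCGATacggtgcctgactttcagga
Tpd52l2, 27 nt, chr2:181510504-181510530, plus strand: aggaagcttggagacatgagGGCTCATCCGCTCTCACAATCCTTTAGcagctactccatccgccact
Porcn, 18 nt, chrX:8203026-8203043, minus strand: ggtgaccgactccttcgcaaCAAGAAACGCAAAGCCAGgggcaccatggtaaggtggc
Porcn, 15 nt, chrX:8201658-8201672, minus strand: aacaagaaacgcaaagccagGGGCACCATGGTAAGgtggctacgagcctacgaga
Pls3, 27 nt, chrX:75799717-75799743, minus strand: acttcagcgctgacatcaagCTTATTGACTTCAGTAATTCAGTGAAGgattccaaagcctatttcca

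The second set shows microexons whose inclusion varied between neuronal classes, by at least 25 points except in Sag, where the range was 23.4 points. Some are pairs in the same gene. Those of Pdlim5 were always used together, and the 21-nt exon of Atp1b2 was found only beside the 27-nt exon, which also occurred without it. Those of Sag stood in place of each other, and those of Nptn are a long and a short form of the same exon.
Atp1b2, 27 nt, chr11:69602304-69602330, minus strand: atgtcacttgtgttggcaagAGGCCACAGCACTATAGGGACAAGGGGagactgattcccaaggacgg
Atp1b2, 21 nt, chr11:69601924-69601944, minus strand: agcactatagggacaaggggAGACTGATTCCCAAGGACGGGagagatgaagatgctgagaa
Nsfl1c, 6 nt, chr2:151502455-151502460, plus strand: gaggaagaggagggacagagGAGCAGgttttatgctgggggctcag
Impdh1, 17 nt, chr6:29201888-29201904, minus strand: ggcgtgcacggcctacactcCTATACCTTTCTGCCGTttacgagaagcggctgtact
Arl6, 13 nt, chr16:59618666-59618678, minus strand: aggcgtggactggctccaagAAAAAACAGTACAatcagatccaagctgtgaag
Sgce, 27 nt, chr6:4690469-4690495, minus strand: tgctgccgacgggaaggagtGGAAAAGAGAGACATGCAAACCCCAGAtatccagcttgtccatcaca
Nptn, 22 nt, chr9:58650497-58650518, plus strand: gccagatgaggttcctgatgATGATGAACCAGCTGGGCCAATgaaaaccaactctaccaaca
Nptn, 10 nt, chr9:58650509-58650518, plus strand: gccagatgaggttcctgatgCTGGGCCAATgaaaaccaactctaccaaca
Pdlim5, 15 nt, chr3:142306284-142306298, minus strand: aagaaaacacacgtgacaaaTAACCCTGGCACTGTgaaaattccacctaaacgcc
Pdlim5, 18 nt, chr3:142304705-142304722, minus strand: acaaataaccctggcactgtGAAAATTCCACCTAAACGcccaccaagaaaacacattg
Sag, 10 nt, chr1:87844112-87844121, plus strand: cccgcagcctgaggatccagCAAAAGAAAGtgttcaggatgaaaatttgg
Sag, 9 nt, chr1:87844869-87844877, plus strand: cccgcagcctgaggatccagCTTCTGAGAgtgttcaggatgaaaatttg
Apbb1, 6 nt, chr7:105565946-105565951, minus strand: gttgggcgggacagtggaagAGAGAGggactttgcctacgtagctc
Zmynd8, 12 nt, chr2:165852868-165852879, minus strand: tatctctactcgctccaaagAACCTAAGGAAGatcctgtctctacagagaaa
Dctn1, 21 nt, chr6:83183936-83183956, plus strand: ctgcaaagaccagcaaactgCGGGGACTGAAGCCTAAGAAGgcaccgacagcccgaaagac

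The columns held between 3509890 counts (RGC) and 55437340 counts (Rod). Of 36 class markers, 35 were highest in their own column, the exception being the Müller glia marker Dkk3. Transcript models cover 36426 of 44325 isoforms, namely each isoform that rods had counts for. Microexons found only in isoforms without a rod count are therefore not covered. Isoforms that lack a microexon are left out of its inclusion in the same way where rods had no count for them. Isoforms without a model held at most 0.289% of a column's counts, though more in single genes, which is given where it bears on a value. The MG column also had the highest summed levels of pigment epithelium markers (5 of 5 found, 8826 CPM against 2.85 to 62.4 CPM elsewhere, where CPM are counts scaled to 1000000 per column), microglia markers (6 of 6, 1713 against 16.2 to 735 CPM), endothelial and pericyte markers (3 of 6, 261 against 0 to 12.4 CPM) and astrocyte markers (4 of 5, 2221 against 459 to 793 CPM). Rod markers in the MG column summed to 1270 CPM, 5.96% of their level in the Rod column.

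The microexons were 6 to 27 nt long, with a median of 22 nt, and 371 of them measured 22 to 27 nt. Only 4 had 6 nt, the shortest length found. Their length was divisible by 3, which leaves the reading frame intact when a coding exon is skipped, in 428 of 691 (61.9%, interval 58.2 to 65.6%), against 38.6% of the 95964 internal exons of 28 nt or more. The share rose to 77.7% among the 139 microexons of 3 to 15 nt. On either side of the upper limit it was 55.0% of the 209 exons of 25 to 27 nt and 54.3% of the 247 exons of 28 to 30 nt. M21 holds 688 of the 691 as internal exons at the same coordinates, 619 of them as coding sequence, 47 in untranslated or partly coding positions and 22 in noncoding transcripts. Most genes had a single microexon, 71 had several, and the collagen gene Col23a1 had 9.

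**Figure D1:**
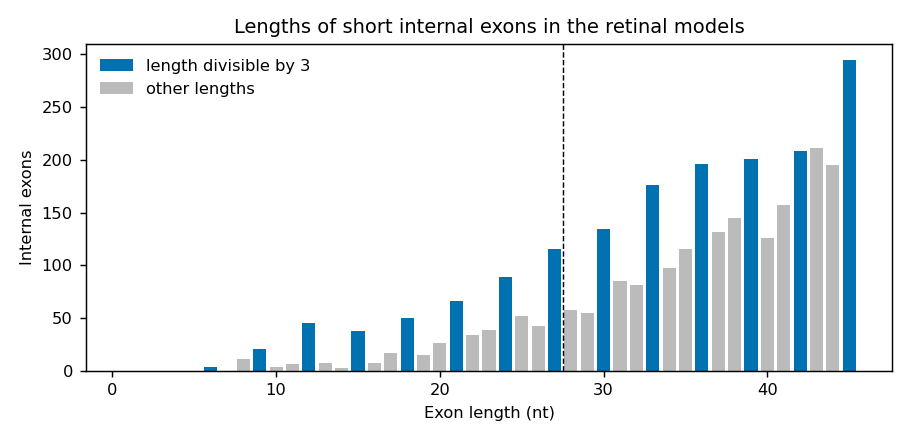
Number of internal exons (vertical axis) at each length in nt (horizontal axis) in the retinal transcript models, up to 45 nt. Blue bars are lengths divisible by 3, grey bars other lengths, and the dashed line marks the upper limit of 27 nt. From 9 to 39 nt each bar at a multiple of 3 stands above both of its neighbours, on either side of the line.

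Short exons were lacked by some covering isoform more often than long ones. At least 1 covering isoform lacked the exon for 319 of the 691 microexons (46.2%, interval 42.4 to 49.96%), against 23.8% of longer internal exons. These exons are called alternative here. An isoform with an overlapping exon of other boundaries counts as lacking the exon, so the shares are not those of skipped exons alone. The other 372 microexons sat in every covering isoform that has a model, which fixes their inclusion at 100%. Isoforms without a rod count could lack them unseen. Enough counts were present in at least 1 class for 504 microexons, in at least 2 classes for 400 and in all 6 classes for 114, while 187 were measured in none.

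Among alternative microexons, Müller glia had the lowest median inclusion of the 6 classes. The median was 34.5% in MG over 112 measured microexons, 68.5% in AC over 195, 71.5% in BC over 200, 74.0% in Rod over 228, 80.2% in Cone over 119 and 91.8% in RGC over 77. Longer alternative exons gave medians of 73.1 to 83.9%, and there MG was the highest at 83.9%. The classes measured different sets of microexons, so these medians describe each column and are not a paired comparison. With the microexons of 100% included, the medians lay between 98.2% (Rod) and 100% (AC, MG and RGC). Inclusion between 10 and 90%, meaning that a column held both forms, was found for 29.5% of measured microexons in Rod and 28.8% in BC. It was found for 25.2% in Cone, 24.8% in AC, 24.1% in MG and 15.9% in RGC. The same share of longer exons was 7.45 to 15.4%. Since each isoform with a model has a rod count, no alternative microexon could be at 0 or 100% in Rod. In RGC, the column with the fewest counts, 8 were at 0% and 20 at 100%. The part of the choice of models and of depth in the order of the classes was not tested.

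Inclusion differed by at least 25 points between some pair of classes for 85 of 400 microexons (21.3%), in 79 genes, where the background over all internal exons was 6.08%. Among alternative exons the shares were 85 of 218 microexons (39.0%) and a background of 22.5%. The difference reached 50 points for 50 microexons and 75 points for 30. When any overlapping exon was counted as inclusion, 74 of the 85 still differed by at least 25 points between the same classes and 8 had a difference of 0. A length divisible by 3 was seen in 61 of the 85 and coding sequence in 72. Of the measured microexons with a length divisible by 3, 26.4% differed (61 of 231), against 14.2% of the others (24 of 169), while for longer exons the shares were 5.77% and 6.08%. The shortest differed most often, with 36.6% of those of 3 to 15 nt (30 of 82) and 17.3% of those of 16 to 27 nt (55 of 318). At the upper limit of the length rule, 15.7% of measured exons of 25 to 27 nt differed and 12.2% of those of 28 to 30 nt.

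The class with the lowest inclusion among these 85 was MG for 30 microexons, AC for 19, Rod for 11, RGC for 11, BC for 9 and Cone for 5. Pairs of classes share columns, so their counts are not independent. Every pair with MG leaned the same way. Among 205 microexons measured in MG and AC, inclusion was lower in MG for 29 and higher for 8. The counts were 26 and 4 of 211 beside BC, and 25 and 2 of 177 beside Cone. Beside Rod they were 28 and 1 of 216, and beside RGC 23 and 6 of 122. The backgrounds for exons lower in MG were 1.04%, 0.589%, 0.67%, 0.71% and 1.29% of all internal exons in that order, and those for exons higher in MG were 1.53%, 0.609%, 0.545%, 0.713% and 1.57%. Over all internal exons the lower share was the larger of the pair beside Cone alone. The share of microexons higher in MG was also above its background in each pair except that with Rod. Cones and rods were the most alike pair, with 3 of 221 microexons differing (1.36%, background 0.516%). Among alternative exons their shares were close, at 3 of 118 microexons (2.54%) and 135 of 6320 longer exons (2.14%).

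**Figure D2:**
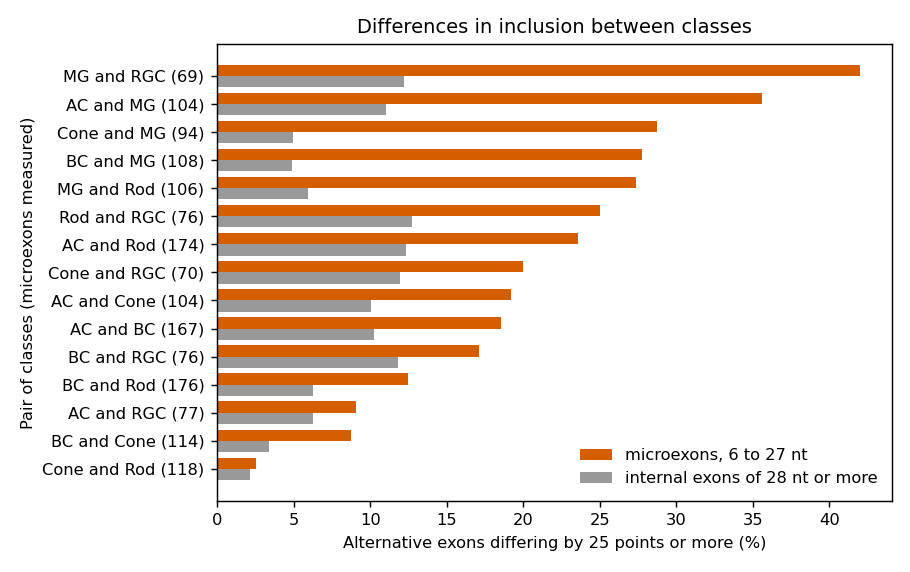
Share of alternative exons whose inclusion differs by 25 percentage points or more (horizontal axis, percent) for each of the 15 pairs of classes (vertical axis, with the number of alternative microexons measured in both). Orange bars are microexons and grey bars internal exons of 28 nt or more. The orange bar is the longer in each pair, and the 5 pairs with MG hold the longest orange bars.

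A group of microexons had lower inclusion in Müller glia than in every other class. In 21 of 207 microexons measured in MG and in at least 3 other classes (10.1%), inclusion in MG lay at least 25 points below every other measured class. The background over all internal exons was 0.286%. A single microexon, in Ncam1, stood at least 25 points above every other class (background 0.167%). This rule was added after earlier values had been seen. The median inclusion of the 21 was 12.2% in MG and 90.4% to 99.8% in the other classes, 18 of them were at 20% or less in MG, and 15 were at 80% or more in every other measured class. They fall in 20 genes, 17 have a length divisible by 3 and 17 are coding. Rod markers at 5.96% of their rod level and the pigment epithelium, microglia and vascular markers of the MG column stand beside this result, and their part in it was not tested.

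**Figure D3:**
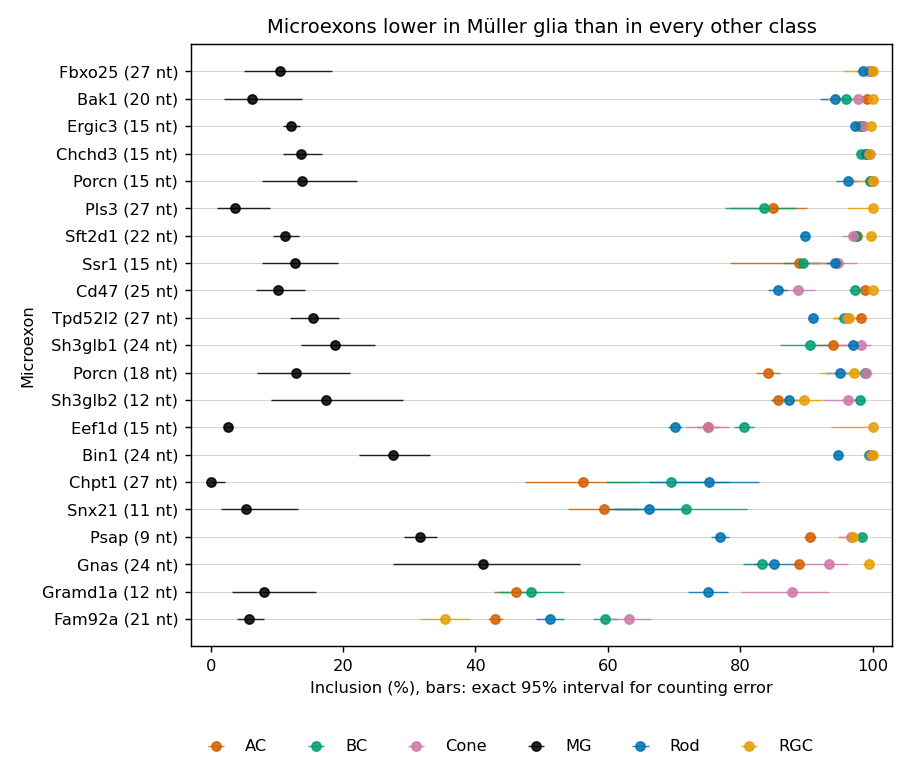
Inclusion in percent (horizontal axis) of the 21 microexons lower in Müller glia than in every other measured class (vertical axis, with length), ordered by the gap between MG and the next class. Points are class columns and bars exact 95% intervals for counting error. The black MG points lie at 41.2% or below and apart from all other points in each line.

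Several of these microexons lie in genes of the secretory pathway. Ergic3 encodes a membrane protein that cycles between the endoplasmic reticulum and the Golgi. Its 15-nt microexon at chr2:156015377-156015391 was included at 98.1% in AC, 98.3% in BC, 98.7% in Cone, 12.2% in MG, 97.3% in Rod and 99.7% in RGC. Only 328 of 2697 MG counts carried it (interval 11.0 to 13.5%), while the 5 neuronal columns lay between 97.3 and 99.7%. Ssr1 encodes a subunit of the complex that assists protein entry into the endoplasmic reticulum, and its 15-nt exon at chr13:37983095-37983109 stood at 88.9% in AC, 89.5% in BC, 94.8% in Cone, 12.7% in MG and 94.3% in Rod. The MG interval, 7.69 to 19.3%, was far below the lowest neuronal interval, 78.4 to 95.4% in AC. Sft2d1, a gene of vesicle transport, had a 22-nt exon at chr17:8317850-8317871 that M21 places in a noncoding transcript. It was included at 97.7% in AC, 97.5% in BC, 97.0% in Cone, 11.2% in MG, 89.7% in Rod and 99.8% in RGC. Both microexons of Porcn, the enzyme that attaches a lipid to Wnt proteins, were low in MG: the 15-nt exon at chrX:8201658-8201672 was at 13.9% there and at 96.3% or more elsewhere, and the 18-nt exon at chrX:8203026-8203043 at 12.9% and at 84.3% or more.

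A further group encodes proteins with BAR domains, which bend membranes. The 24-nt microexon of Sh3glb1 (endophilin B1) at chr3:144699854-144699877 was included at 94.0% in AC, 90.6% in BC, 98.2% in Cone, 18.7% in MG and 97.1% in Rod, and RGC had too few counts. Its relative Sh3glb2 had a 12-nt exon at chr2:30349226-30349237 with 85.7% in AC, 98.0% in BC, 96.3% in Cone, 17.5% in MG, 87.4% in Rod and 89.6% in RGC. MG rested on 63 covering counts there and its interval ran from 9.05 to 29.1%. The 24-nt exon of Bin1, of the amphiphysin family, was at 99.6% in AC, 99.5% in BC, 99.8% in Cone, 27.5% in MG, 94.8% in Rod and 100% in RGC. Fam92a, whose protein acts at the base of cilia, had a 21-nt exon at chr4:12169958-12169978 with intermediate use in all neuronal classes, at 43.0% in AC, 59.6% in BC, 63.1% in Cone, 5.80% in MG, 51.3% in Rod and 35.4% in RGC. Its second microexon, of 6 nt, was at 89.9 to 96.2% in every class, MG included, so the difference concerned 1 of the 2 short exons of this gene.

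Mitochondrial, lysosomal and cell-surface genes were in the group as well. Chchd3 encodes a subunit of the MICOS complex that shapes the inner mitochondrial membrane, and its 15-nt exon at chr6:32893392-32893406 stood at 99.1% in AC, 98.3% in BC, 99.6% in Cone, 13.7% in MG, 99.1% in Rod and 99.4% in RGC. Psap encodes prosaposin, the precursor of the saposins that help to break down sphingolipids, and its 9-nt exon at chr10:60297537-60297545 stood at 90.6% in AC, 98.3% in BC, 96.7% in Cone, 31.7% in MG, 76.9% in Rod and 97.0% in RGC. The MG value had an interval of 29.2 to 34.2%. Rods were the lowest of the neurons for Psap, with an interval of 75.5 to 78.3%. Cd47, a surface protein that inhibits engulfment by phagocytes, had a 25-nt exon at chr16:49908054-49908078 with 98.9% in AC, 97.4% in BC, 88.7% in Cone, 10.2% in MG, 85.7% in Rod and 100% in RGC. Bak1 promotes apoptosis, and M21 lists the transcript that carries its 20-nt exon at chr17:27021663-27021682 as a target of nonsense-mediated decay. That exon was included at 99.1% in AC, 96.0% in BC, 97.8% in Cone, 6.17% in MG, 94.3% in Rod and 100% in RGC, so the counts of the protein-coding form were 76 of 81 in MG and 10 of 1117 in AC.

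The largest gap between MG and the next class was in Fbxo25, a substrate receptor of ubiquitin ligases. Its 27-nt exon at chr8:13938922-13938948 stood at 99.8% in AC, 99.5% in BC, 99.5% in Cone, 10.4% in MG, 98.6% in Rod and 100% in RGC. Eef1d, a subunit of the translation elongation factor 1 complex, had a 15-nt exon in an untranslated or partly coding position at chr15:75905886-75905900 with 75.2% in AC, 80.6% in BC, 75.1% in Cone, 2.68% in MG, 70.1% in Rod and 100% in RGC. The MG value rested on 3772 covering counts and its interval was 2.19 to 3.24%. Pls3, which bundles actin filaments, had a 27-nt exon at chrX:75799717-75799743 with 85.0% in AC, 83.6% in BC, 3.60% in MG and 100% in RGC, without enough counts in Cone and Rod. Pls3 isoforms without a model held 17 counts in RGC, beside 93 covering counts. The other 5 of the 21 lie in Tpd52l2, Chpt1, Snx21, Gnas and Gramd1a. Chpt1, an enzyme of phosphatidylcholine synthesis, had 0 of 173 MG counts with its 27-nt exon (interval 0 to 2.11%) against 56.2% in AC, 69.6% in BC and 75.2% in Rod. Chpt1 isoforms without a model held 28 counts in AC, beside 137 covering counts.

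The opposite case was Ncam1, a neural cell adhesion molecule. Its 15-nt exon at chr9:49541888-49541902 was included at 9.09% in BC, 0% in Cone, 81.1% in MG and 2.20% in Rod, and AC and RGC had too few counts. The MG value rested on 74 covering counts, with an interval of 70.3 to 89.3%.

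The comparison of amacrine cells with Müller glia sets a neuron beside a glial cell. Of 205 microexons measured in both, 29 were higher in AC and 8 lower, 18% in all where the background was 2.56%. The largest differences towards AC were in Tpd52l1, Pdlim5 and Bak1. The 15-nt exon of Tpd52l1, of the tumor protein D52 family, stood at 99.6% in AC, 15.1% in BC and 3.39% in MG, where MG had 59 covering counts. Pdlim5 links kinases to the actin cytoskeleton, and its exons of 15 nt and 18 nt, at chr3:142306284-142306298 and chr3:142304705-142304722, were always found in the same isoforms. Each was included at 99.1% in AC, 23.0% in BC, 0% in MG and 71.9% in Rod. The pair was carried by 108 of 109 AC counts and by 0 of 190 MG counts, with 29 further AC counts on Pdlim5 isoforms without a model. The largest differences towards MG were in Impdh1, Sgip1, Sgce and the 22-nt exon of Nptn. Sgip1, an adaptor of clathrin-mediated endocytosis, had a 25-nt exon at chr4:102860770-102860794 with 7.69% in AC, 42.2% in BC, 28.8% in Cone, 64.8% in MG and 48.7% in Rod. Another exon overlaps its position in the isoform without it, and counted as any overlapping exon the difference between MG and AC was 0.

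Amacrine cells and rods, the deepest neuronal columns, differed in 41 of 312 microexons (13.1%, background 3.35%), 17 higher in AC (background 1.36%) and 24 lower (background 1.99%). Limk2, a kinase that controls actin turnover, had an 18-nt exon at chr11:3352900-3352917 with 86.7% inclusion in AC and 20.9% in Rod, and too few counts elsewhere. Zmynd8 reads histone marks, and its 12-nt exon at chr2:165852868-165852879 was included at 90.3% in AC, 63.2% in BC and 28.5% in Rod. BC lay between the other classes, and the 3 intervals did not overlap. Isoforms of Zmynd8 without a model held 55 more counts in AC and 45 in BC, beside 175 and 136 covering counts. Towards rods the largest differences were in both microexons of Atp1b2 and in Rps24 and Impdh1, described next.

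**Figure D4:**
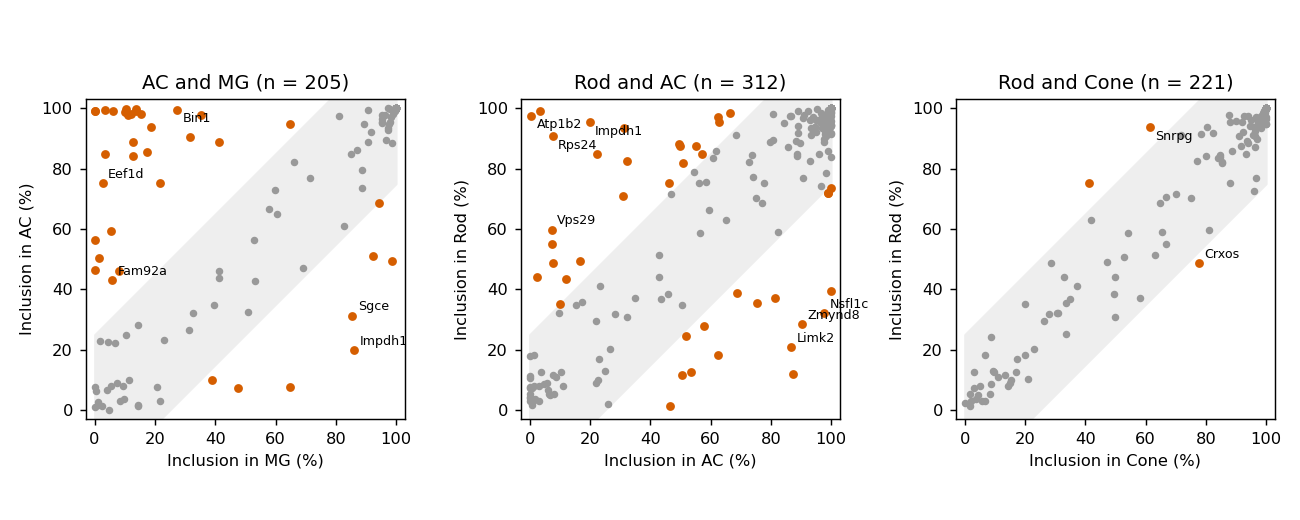
Inclusion in percent of each microexon in MG and AC, AC and Rod, and Cone and Rod (horizontal and vertical axes), with the number measured in both columns in each title. Orange points lie outside the grey band of 25 points and gene symbols name a selection of them. The left panel has 29 points above the band and 8 below, the middle panel 24 above and 17 below, and the right panel 2 above and 1 below.

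Microexons also separated the neurons from one another. With the MG column left out, 63 of 387 microexons (16.3%) differed by at least 25 points between some pair of the 5 neuronal classes, beside a background of 5.64%. Among 204 microexons with at least 4 neuronal classes measured, 16 had a range of at least 50 points (7.84%, background 1.09%).

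Photoreceptors stood apart for Atp1b2, which encodes a beta subunit of the sodium-potassium pump. Its 27-nt exon at chr11:69602304-69602330 was included at 3.61% in AC, 29.9% in BC, 99.1% in Cone, 99.0% in Rod and 0.909% in RGC, and MG had only 43 covering counts. The 21-nt exon at chr11:69601924-69601944, found only in an isoform that also has the 27-nt one, was at 0.490% in AC, 10.1% in BC, 94.0% in Cone, 97.6% in Rod and 0% in RGC. Cones and rods thus carried both exons in nearly all counts, AC and RGC in almost none, and bipolar cells were in between. The intervals of BC, 27 to 32.9% and 8.28 to 12.2%, overlapped with no other class. Sgce (epsilon-sarcoglycan, a membrane glycoprotein) had a 27-nt exon at chr6:4690469-4690495 with 31.3% in AC, 60.6% in BC, 98.4% in Cone, 85.5% in MG, 93.4% in Rod and 29.1% in RGC. Nrbp1, a pseudokinase, had a 24-nt exon at chr5:31246322-31246345 with 7.49% in AC, 27.4% in BC, 66.7% in Cone, 0% in MG, 55.0% in Rod and 0% in RGC. These 4 exons were the only ones of 121 measured microexons (3.31%, background 0.0951%) with Cone and Rod both at least 25 points above AC, BC and RGC, a rule set after the values were seen, as was their naming for Nrbp1.

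Amacrine cells, interneurons of the inner retina, and ganglion cells, whose axons form the optic nerve, stood on the same side of the other neurons for another set of microexons. Nsfl1c encodes p47, a cofactor of the p97 ATPase in membrane fusion. Its 6-nt exon at chr2:151502455-151502460, among the shortest in the data, was included at 97.8% in AC, 23.2% in BC, 30.9% in Cone, 35.2% in MG, 32.0% in Rod and 99.1% in RGC. The 2 high classes and the 4 low classes did not overlap. Ewsr1, an RNA-binding protein, had an 18-nt exon at chr11:5091460-5091477 with 46.6% in AC, 0.497% in BC, 1.86% in Cone, 0% in MG, 1.41% in Rod and 32.8% in RGC. The difference between AC and MG was 76.9 points when any overlapping exon was counted as inclusion. In the other direction, Vps29, a subunit of the retromer complex for endosomal recycling, had a 12-nt exon at chr5:122356794-122356805 with 7.35% in AC, 89.0% in BC, 81.1% in Cone, 47.5% in MG, 59.7% in Rod and 4.67% in RGC. By a rule set after the values were seen, AC and RGC were both at least 25 points above BC, Cone and Rod for 2 of 121 microexons (1.65%, background 0.171%) and below for 4 (3.31%, background 0.228%), namely in Vps29, Arl6, Sgce and 1 exon of Atp1b2. Ewsr1 and Vps29 were likewise named after their values were seen.

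Arl6 and Impdh1 carry mutations in inherited retinal disease and have known retinal splice forms. Arl6 (Bbs3) is a small GTPase of ciliary transport, and its 13-nt exon at chr16:59618666-59618678 was chosen here after its values were seen. It was included at 66.6% in AC, 98.2% in BC, 98.9% in Cone, 57.9% in MG, 98.5% in Rod and 26.3% in RGC. The photoreceptor and bipolar columns were near complete, and RGC was lowest with an interval of 22.3 to 30.6%. Impdh1, an enzyme of guanine nucleotide synthesis, had a 17-nt exon at chr6:29201888-29201904 with 19.9% in AC, 76.3% in BC, 92.0% in Cone, 86.1% in MG and 95.4% in Rod, and none of 44 covering counts in RGC, under the minimum, carried it. The form without it was the main one in AC, with an interval of 17.6 to 22.3%. Neither length is divisible by 3. Rods held 18234 of 25058 covering counts of Impdh1 and 45992 of 68661 of Arl6, beside 165 and 681 in MG. Rod markers in the MG column summed to 5.96% of their rod level, and the part of rod counts in these MG values was not tested.

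Rps24, a protein of the small ribosomal subunit, had the best-covered alternative microexon with a large range. Its 18-nt exon at chr14:24494052-24494069, in an untranslated or partly coding position in M21, was included at 7.65% in AC, 42.4% in BC, 91.1% in Cone, 20.8% in MG, 90.8% in Rod and 80.1% in RGC. Each column held at least 10785 covering counts, and the widest interval was 79.4 to 80.9% in RGC. The order of classes was unlike that of Atp1b2, since RGC were close to photoreceptors and BC stood midway. A further exon of 20 nt in Rps24 was present in every isoform. Ribosomal protein genes have processed copies in the genome, and how reads from them were counted is not given in the sources used here.

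Neuroplastin (Nptn), a cell adhesion molecule of synapses, had a single short exon with a choice of start. The 22-nt form at chr9:58650497-58650518 and the 10-nt form at chr9:58650509-58650518 share their end and exclude each other. The long form was included at 49.5% in AC, 76.2% in BC, 98.6% in MG, 88.3% in Rod and 0% in RGC, and the short form held the rest in each class. RGC used the short form in all 176 counts and MG the long form in 98.6%, with AC split evenly within counting error (46.4 to 52.6%). Counted as any overlapping exon, inclusion was 100% in all classes, so the range of 98.6 points lies in 12 nt at the start of the exon.

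**Figure D5:**
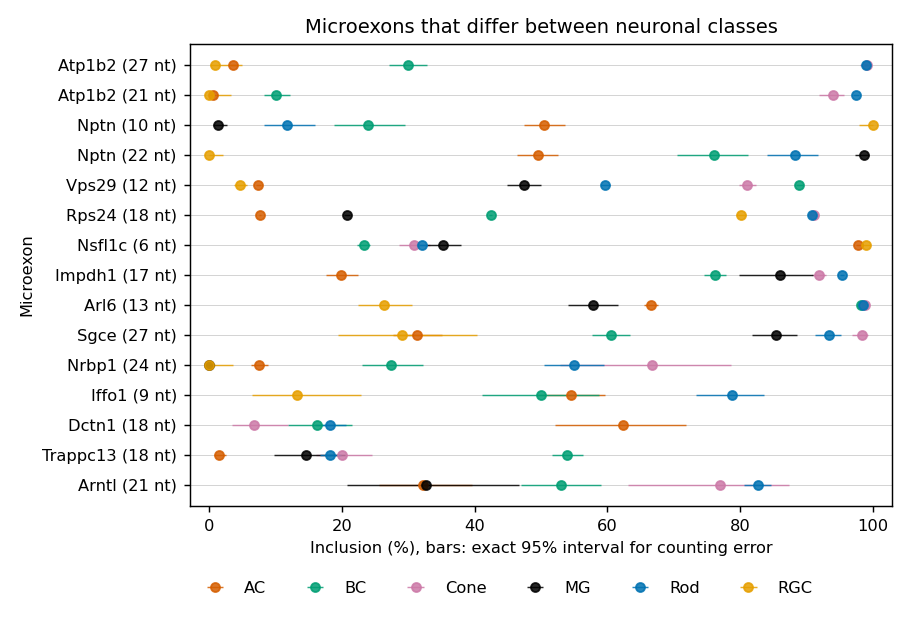
Inclusion in percent (horizontal axis) of microexons with a range of at least 50 points among at least 4 measured neuronal classes (vertical axis, with length; 1 of the 16 is not shown), ordered by that range. Points are class columns, with MG in black where measured, and bars are exact 95% intervals. Cone and Rod lie together at the right for both Atp1b2 exons, and AC and RGC lie together at the right for Nsfl1c.

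Trappc13, a subunit of a vesicle tethering complex, was the only microexon at least 25 points higher in BC than in every other measured class (1 of 236, background 0.0473%): its 18-nt exon was at 1.41% in AC, 54.0% in BC, 20.1% in Cone, 14.5% in MG and 18.2% in Rod. The 9-nt exon of Iffo1, an intermediate filament family member, was lowest in RGC, at 54.6% in AC, 50% in BC, 78.8% in Rod and 13.2% in RGC. Arntl (Bmal1), a core transcription factor of the circadian clock, had a 21-nt exon at 32.2% in AC, 53.1% in BC, 76.9% in Cone, 32.7% in MG and 82.7% in Rod. The hours at which the tissues were taken are not given in the sources used here. These 3 exons were named after their values were seen.

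Between cones and rods only 3 of 221 microexons crossed the limit, 1 higher in cones (background 0.221%) and 2 lower (background 0.296%), none by 50 points. Among alternative exons the share was 2.54% for microexons and 2.14% for longer exons. Snrpg, a core protein of spliceosomal particles, had a 23-nt exon at 94.7% in AC, 67.6% in BC, 61.5% in Cone, 64.8% in MG and 93.7% in Rod, where Cone had 52 covering counts. The 25-nt exon of Crxos, a photoreceptor-expressed gene next to Crx, was at 77.8% in Cone and 48.7% in Rod.

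Arrestin (Sag), which shuts off activated rhodopsin, had 3 microexons. An exon of 24 nt was present in every isoform. Exons of 10 nt at chr1:87844112-87844121 and of 9 nt at chr1:87844869-87844877 stood in place of each other, so each isoform had exactly 1 of them. The 10-nt exon was included at 34.9% in AC, 42.3% in BC, 58.2% in Cone, 39.5% in MG and 37.1% in Rod, and RGC had 0 covering counts. Rods held 534715 covering counts, and their interval of 37.0 to 37.2% lay apart from the 57.7 to 58.7% of cones, although the gap was under the limit of 25 points. Sag is a photoreceptor gene, and rod markers summed to 0.646% of their rod level in AC, 1.74% in BC and 5.96% in MG.

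Dctn1, the large dynactin subunit that binds microtubules, had 4 microexons measured in AC, BC and Rod. The 21-nt exon at chr6:83183936-83183956 was at 87.3% in AC, 11.0% in BC and 12% in Rod, and the 18-nt exon at chr6:83186428-83186445 at 62.4% in AC, 16.3% in BC, 6.79% in Cone and 18.2% in Rod. A second 21-nt exon was at 84.6 to 98.0% and the 15-nt exon at 78.4 to 98.0%. AC had the highest value of the measured classes for all 4. For the second 21-nt exon its interval overlapped with those of Cone and Rod, and for the 15-nt exon with those of BC and Rod. For the 18-nt exon the difference between AC and Cone was 55.6 points, and 3.09 points when any overlapping exon was counted as inclusion.

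A list of 55 genes known for neural microexons was drawn from textbook knowledge. In these models 33 of the genes had 45 microexons, and 26 of those were measured in no class, with a median of 73 covering counts over all classes together. Of 14 measured in at least 2 classes, 6 differed by at least 25 points, beside 85 of 400 for all microexons; a comparison of the list with the rest was not made. The 6 lie in Zmynd8, Dctn1 (the 21-nt and 18-nt exons), Apbb1 and Macf1 (2 forms). Apbb1, an adaptor of the amyloid precursor protein, has a 6-nt exon that is known from neurons. At chr7:105565946-105565951 it was included at 9.94% in AC, 12% in BC, 20.1% in Cone, 11.5% in MG, 35.2% in Rod and 6.94% in RGC, so that it was a minority form in every class and highest in rods (interval 33.7 to 36.7%). Macf1, a giant linker of actin and microtubules, had forms of 12 nt and 15 nt of the same exon, with the 12-nt form at 60.6% in AC and 35.1% in BC. Macf1 isoforms without a model held 12 counts in AC and 27 in BC, beside 71 and 77 covering counts. The 9-nt exon of Ap1s2, an adaptor subunit for clathrin coats, was at 95.5 to 99.2% in all 5 neuronal columns. Nfasc, Abi1, Ank2, Camta1 and Dnm2 were at 92.9% or more in each class measured, and these 6 genes were named after their values were seen.

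Genes grouped by function gave small numbers, to be read beside 21.3% of all microexons and 6.08% of all internal exons that differed. Of cytoskeleton and motor genes, 14 of 51 had microexons and 4 of 9 measured exons differed, in Dctn1 and Macf1. For adhesion and guidance receptors this was 8 of 38 genes and 3 of 4 exons, the latter in Nptn and Ncam1. The exons of Macf1 and those of Nptn are each a long and a short form of 1 exon. For endocytosis and trafficking it was 16 of 47 genes and 3 of 9 exons. Cilium genes had 8 of 50 and 1 of 5, in Arl6. For synapse and vesicle release it was 11 of 54 genes and 1 of 1 exon, in Cadps, a priming factor of dense-core vesicles. Its 12-nt exon was in 0 of 54 AC counts and in 73 of 73 BC counts, beside 29 AC and 3 BC counts of Cadps isoforms without a model, which enter neither value. Transcription, chromatin and translation genes had 10 of 31 and 1 of 3, in Zmynd8. Among 20 splicing regulators, Srrm4 alone had microexons, and neither of its 2 differed by 25 points.

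The shortest exons with enough counts were those of Nsfl1c, Apbb1 and Fam92a, at 6 nt, and of Pitpna and Pitpnb, at 8 nt. The last pair encodes phosphatidylinositol transfer proteins, and both 8-nt exons were included at 100% in all 6 classes, since every covering isoform has them. Other deeply covered microexons had no alternative either: those of Gpx4, a peroxidase that protects membrane lipids, of the ribosomal protein gene Rpl41 (2 exons), and of Rps24 and Sag. Microexons with both forms in every measured column included the 27-nt exon of Tpd52. It was at 61% in AC, 57.6% in BC, 83.9% in Cone, 82.8% in MG, 83.5% in Rod and 66.5% in RGC. The 26-nt exon of Ptgds, the prostaglandin D2 synthase, was at 34.9 to 50.2% and the 22-nt exon of Tnnt1, a troponin subunit, at 50.3 to 66.2%. In Ptgds and Tnnt1 an overlapping exon took the place of the microexon in the other isoforms. MG held 52038 of 73278 covering counts of Ptgds, and BC 17414 of 19408 of Tnnt1. Müller glia markers summed to 0.883 to 2.93% of their MG level in AC, BC, Cone and Rod. Bipolar markers summed to 2.98 to 3.63% of their BC level in Cone, MG and Rod. The part of such carried-over counts in the values of the other columns was not tested.

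The known regulators were themselves unequal between the columns. Srrm3 was at 9.87 CPM in Rod, 7.51 in BC, 3.28 in Cone, 2.45 in AC, 1.99 in RGC and 0.326 in MG, the last from 2 counts. Srrm4 was at 14.6 CPM in BC, 6.84 in Cone, 6.80 in Rod, 3.09 in AC, 0.489 in MG from 3 counts, and at 0 counts in RGC. Both were thus lowest or next to lowest in Müller glia. Ptbp1 was at 18 CPM in Rod, 14 in MG, 10.3 in BC, 6.57 in Cone, 5.87 in AC and 0 counts in RGC. Rbfox1 and Rbfox2, further activators of neuronal exons, were highest in AC (121 and 77.1 CPM) and RGC (46.4 and 107 CPM) and at most 6.03 CPM in the other columns. Msi1, a Musashi protein known for photoreceptor exons, was at 28.3 CPM in Rod and 16.4 in Cone, and at most 3.23 CPM elsewhere. The other Musashi gene, Msi2, did not have this order. It was at 40.8 CPM in AC, 22.7 in Rod, 22.5 in BC, 18.5 in Cone, 17.1 in RGC and 10.8 in MG. The part of these levels in the inclusion values was not tested.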

How the data were processed

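The authors deposited whole-number counts per isoform for 6 cell classes and a table of transcript models whose rows name FLAIR, a long-read isoform tool, as their source, per the file contents. The genome build is mm10 (GRCm38), per the submitters' processing notes, and GENCODE M21, an annotation of that build, has 93.0% of the 1482 splice junctions of microexons. The aligner, its treatment of very short exons, the collapse of reads to molecules, cell typing and doublet removal are not given in the sources used here.

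From the deposited counts, inclusion was computed for every internal exon with the same code (Python 3.11.15, numpy 2.4.6, pandas 2.3.3) and exact intervals with scipy 1.17.1. The limits were 50 covering counts, 3 to 27 nt and a difference of 25 points. CPM values are counts scaled to 1000000 per column. The code was tested on simulated data. The background is the share of all internal exons past the same limit. Symbols came from M21, and 596 of 596 genes matched. Sequences are spliced M21 transcripts with 20 flanking bases per side, given for coding microexons, and those of some named exons are not shown. Microexons of 2 genes that the rules select are not reported here. Exons of a gene, and pairs of classes, share counts.

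Microexons and gene lists were chosen with earlier results of these data known. The text names microexons by rule: the 12 with the largest range, 1 per gene; the 4 largest differences in each direction for AC against MG, AC against Rod and Cone against Rod; the 5 shortest measured in at least 3 classes; those in genes of the neural list with a range of at least 10 points; and the 5 best covered at 95% or more, and at 10 to 90%, in every class. Exons outside it are said to be chosen after their values were seen, as is the whole group low in MG. Alternatives changed the length limits, the isoforms, the covering minimum, the form of the ratio and the size of a difference.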

Additional observations from a re-analysis of the deposited data

How the results depend on the processing

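The difference between the highest and lowest class was recomputed for 92 microexons, the 85 differing by 25 points and the others named by rule that vary, while exons in every covering isoform and changes of the covering minimum, which leave it as it is, were not counted. Of 398 values, 361 stayed within counting error, 36 moved and 1 reversed: in Ryr2, BC minus AC was 46.9 points and -18.6 when any overlapping exon was counted. Of the moved values 16 came from Ensembl-named isoforms, 15 from counting any overlapping exon and 5 from isoforms that contain or skip the exon. In all, 15 of them were 0, among them values of Nptn, Sgip1, Ptgds, Tnnt1 and both forms of Macf1. For Sag the 0 came from Ensembl-named isoforms, since the only such isoform holds the 10-nt exon, and not from an overlapping exon. Dctn1 was at 3.09 against 55.6 when any overlapping exon was counted. With Ensembl-named isoforms 38 of the 85 had a value and 31 still differed by 25 points. The number of microexons fell from 691 to 420 with Ensembl-named isoforms and to 139 at 3 to 15 nt. Differences in any pair numbered 35 with Ensembl-named isoforms, 128 with a minimum of 20 covering counts, 30 at 3 to 15 nt, and 150 and 50 with limits of 10 and 50 points, against 85. AC against MG gave 22 with Ensembl-named isoforms and 16 at 3 to 15 nt, against 37. AC against Rod gave 16, 63, 13, 75 and 13 under the same 5 settings in the order of the any-pair counts, against 41. Cone against Rod gave 10 with a minimum of 20, 0 at 3 to 15 nt, 23 at 10 points and 0 at 50 points, against 3. The count low in MG was 12 with Ensembl-named isoforms and 9 at 3 to 15 nt, against 21, and 14 to 28 under the other settings. At 3 to 15 nt, 77.7% of lengths were divisible by 3, and median inclusion was 96.9% in AC, 93.3% in BC, 81.1% in MG, 99.8% in RGC and 93.6% in Rod. Microexons between 10 and 90% numbered 35 in AC, 28 in BC, 18 in Cone, 19 in MG, 12 in RGC and 48 in Rod with Ensembl-named isoforms, and 28, 34, 16, 18, 6 and 28 at 3 to 15 nt. With Ensembl-named isoforms the shares of measured microexons fell too, to 13.1% for any pair, 13.8% for AC against MG, 7.24% for AC against Rod and 7.69% for the group low in MG; the cause was not tested. Alternatives without the MG column (63 of 387) or the RGC column (80 of 398), all those of the group low in MG, and those of differing microexons that no rule names were chosen after seeing the data.

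No paired analysis was possible because class columns have neither library nor replicate numbers, and no library was left out for the same reason. The planned search for TGC in upstream introns was not run because no genome was used here. Depth limits the reading most for RGC, where 138 microexons were measured, against 427 in Rod, and for the 187 microexons measured in no class.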
